A study of Mus musculus with 6 samples.

Results

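Dynlt1b, Dynlt1c, Tmem181a, Gm3435 and Gm3448 are mouse genes with copies on proximal chromosome 17. They were followed in the injured retina as 5 of the 701 genes of the table. The table itself holds genes selected by the authors on a p-value between the same 6 samples, and the 5 genes were chosen from it with that difference known, so that every difference between genotypes is given as a description and no test of it is reported. RNA-seq was done on the peripheral ventrotemporal (VT) retina of wildtype (WT) and Slc6a4-/- mice, both labelled strain C57BL/6 and postnatal day 56 (8 weeks), 24 hours after crush of the left optic nerve (optic nerve crush, ONC), which all 6 samples received. There were 3 samples of each genotype, and the VT retinae of 3 mice were pooled in each. Slc6a4 encodes the serotonin transporter SERT, and Slc6a4-/- mice lack it in every tissue. WT mice were C57BL/6J and the Slc6a4-/- mice were a separately purchased line, so that the deletion and any other difference between the lines cannot be told apart. The study used both sexes, and the sex of each pool is not given in the sources used here.

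Dynlt1b and Dynlt1c encode Tctex-1 (DYNLT1), a small light chain of cytoplasmic dynein, the motor that carries cargo along microtubules towards the cell body and, in photoreceptors, towards the base of the cilium. Light chains of this kind sit as dimers on the dynein intermediate chain, and in neurons they help to link the motor to what it carries. The name comes from the t complex of proximal chromosome 17, a region rich in duplicated genes. Gm3448 is a copy of Tcte3, which encodes Tctex-2, a light chain of the same family known from the outer dynein arms of sperm flagella. Gm3435 is a shortened copy of Ermard, a gene for a membrane protein of the endoplasmic reticulum. Tmem181a encodes a multi-pass transmembrane protein, best known as a host factor for a bacterial toxin.

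The genes lie in 2 groups on chromosome 17 (GRCm38, positions from GENCODE M21), so that the name of a cluster around Dynlt1b holds for 3 of them. Tmem181a is at chr17:6256860-6308314 on the plus strand, Dynlt1b at chr17:6430112-6436296 on the plus strand and Dynlt1c at chr17:6601671-6609774 on the plus strand. Between and beside them the annotation places Dynlt1a, Dynlt1f and the pseudogenes Tmem181b-ps and Tmem181c-ps, and the whole array from Tmem181a to Dynlt1f spans 399 kb. The second group begins 8.39 Mb beyond Dynlt1c. There Gm3448 is at chr17:14995787-15041537 on the minus strand, and Gm3435, at chr17:15010176-15022449 on the plus strand, lies inside its span. Gm3417, 9030025P20Rik, Tcte3 and Ermard complete that array, which spans 126 kb. Its genes form pairs that point away from each other, a Tcte3 copy on the minus strand beside an Ermard copy on the plus strand, and the first exons of the coding transcripts of Gm3448 and Gm3435 overlap by 7 bases. Of 2331 genes annotated on chromosome 17, 35 were among the 701, and these 5 were the only ones that start before Baiap3, 10.2 Mb beyond Gm3448. Within 1 Mb of the 5 genes the annotation holds 108 genes, 48 of them protein-coding, and 0 of the others were among the 701.

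The copies are so alike that the sequence has to be seen before the counts. The coding sequences of Dynlt1a, Dynlt1b, Dynlt1c and Dynlt1f are each 342 bases long and encode the same 113 residues, with 0 residues different between any pair. Dynlt1b differs from the other 3 by 1 base, A21C, with Dynlt1b's base first and positions counted from 1 at the first base of the coding sequence. That base is in exon 1, at position 6430232 of chromosome 17 in Dynlt1b. The first 51 coding bases are shown with the base that differs in capitals, since this base is the last in the transcript that sets Dynlt1b apart from every copy. They span the first 2 exons, chr17:6430212-6431903 (plus strand) for Dynlt1b and chr17:6601810-6603510 (plus strand) for Dynlt1c.
Dynlt1b: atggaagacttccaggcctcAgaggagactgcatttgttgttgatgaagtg
Dynlt1c: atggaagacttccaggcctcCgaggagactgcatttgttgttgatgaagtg
Dynlt1a: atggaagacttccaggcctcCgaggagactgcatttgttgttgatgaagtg
Dynlt1f: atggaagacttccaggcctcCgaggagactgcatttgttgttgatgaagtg

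In the second array the coding sequences of Gm3448 and Tcte3 are identical over all 576 bases, and both differ from Gm3417 by 1 base, G373C with the base of Gm3417 first, which changes 1 of 191 residues. The stretch around it lies in exon 3, chr17:14999204-14999264 (minus strand) in Gm3448, and is shown because it is the only coding difference among the 3 copies.
Gm3448: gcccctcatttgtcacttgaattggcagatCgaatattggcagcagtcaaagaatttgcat
Tcte3: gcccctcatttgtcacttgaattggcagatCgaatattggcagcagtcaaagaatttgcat
Gm3417: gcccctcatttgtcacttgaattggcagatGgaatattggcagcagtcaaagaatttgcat

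Gm3435 and 9030025P20Rik each have 1317 coding bases and differ at 4 of them, A869G, A972G, C1138T and G1266A with the base of 9030025P20Rik first, which changes 2 of 438 residues. Of these, C1138T is the base at which Gm3435 differs from both 9030025P20Rik and Ermard. Coding bases 1108 to 1168 around it lie in exon 12, chr17:15021963-15022023 (plus strand) in Gm3435, and are shown with every base in capitals at which any of the 3 copies differs.
Gm3435: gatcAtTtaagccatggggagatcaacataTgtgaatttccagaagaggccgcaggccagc
9030025P20Rik: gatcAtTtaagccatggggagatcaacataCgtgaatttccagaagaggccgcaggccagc
Ermard: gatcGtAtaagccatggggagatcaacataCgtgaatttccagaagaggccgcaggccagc

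The reads were 75 bases long, and each member's transcripts were therefore cut into all their 75-base words and compared with the transcripts of every other gene. Of the distinct words of Dynlt1b, 82.6% also occurred on the same strand of another gene, 71.9% in Dynlt1a, 71.9% in Dynlt1c and 61.1% in Dynlt1f. Of the words of Dynlt1c, 82.4% were shared, most of them with Dynlt1f (73.4%) and Dynlt1a (54.3%), and 13.0% with Dynlt1b. Gm3435 shared 86.8% of its words, 73.0% with Ermard and 72.1% with 9030025P20Rik. Gm3448 shared 24.7% (21.8% with Tcte3) and Tmem181a 23.4% (23.0% with Tmem181b-ps). So 3 of the 5 genes had little sequence to themselves over all their annotated transcripts, 17.4% for Dynlt1b, 17.6% for Dynlt1c and 13.2% for Gm3435. Gm3448 had 75.3% and Tmem181a 76.6%. These shares leave aside words found only on the opposite strand of another gene. With either strand counted, Dynlt1c shared 84.8% of its words, Gm3448 28.6% and Tmem181a 28.95%. Both ends of each fragment were read, and single words do not show how many fragments could be placed by their other read.

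**Figure D1:**
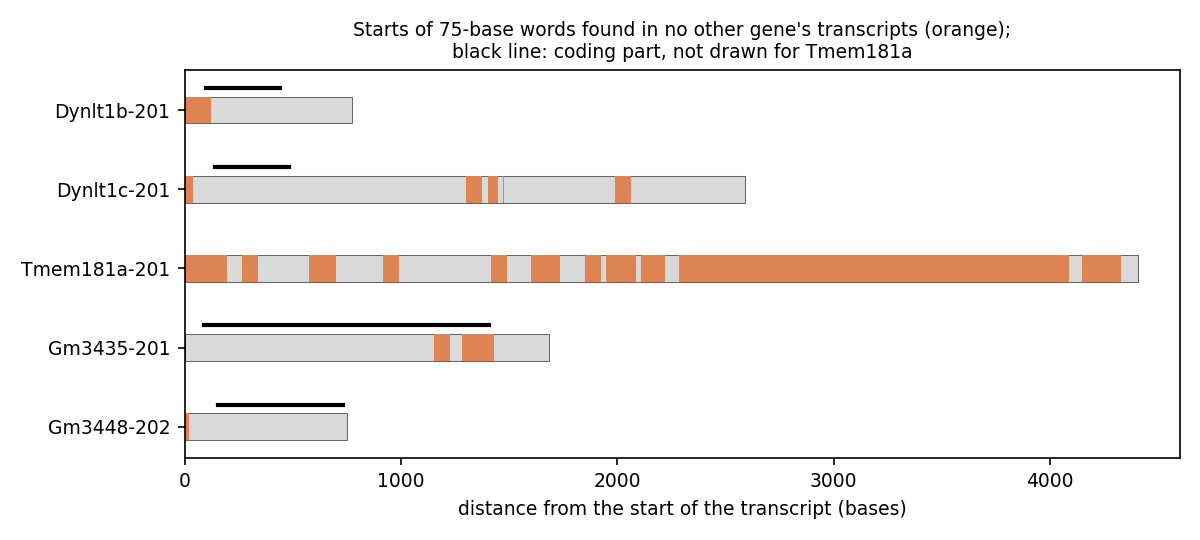
One transcript of each gene drawn to scale, with the distance from its start in bases on the x axis. Orange marks the starts of 75-base words found on the same strand of no other gene. Grey marks the starts of words shared on the same strand, and the black line the coding part. In Dynlt1b the words of its own start only at bases 1 to 121 of 771, in Gm3448 at bases 1 to 20 of 752, while in Tmem181a they make up 68.9% of the words.

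In the main transcript of Dynlt1b, 771 bases in 5 exons, words of its own started only at bases 1 to 121, and base 121 is the coding base 21 shown above. The 650 bases after it, with the rest of the coding part and the whole 3′ untranslated region, held no word that is not also in another gene. In the coding transcript of Gm3435 words of its own fell in 2 runs, starting at bases 1154 to 1228 and 1282 to 1429 of 1684, and base 1228 is the T shown in capitals. In the Dynlt1c transcript of 2589 bases, the length that the deposited RPKM implies for this gene, 9.42% of the words were its own. In the Gm3448 transcript that encodes the Tctex-2 copy, 2.95% were. The own sequence of Gm3448 lay mainly in its other annotated exons. RefSeq promoter windows (GRCm38.p6, 250 bases before to 50 after the start of transcription) were identical over all 300 bases for Gm3448, Tcte3 and Gm3417. Those of Dynlt1c and Dynlt1f were 98.4% identical over 192 aligned bases.

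How the authors' workbench divided reads that match several places is not given in the sources used here, nor whether counting used the strand of the stranded kit. A count of Dynlt1b, Dynlt1c or Gm3435 is therefore uncertain as to the copy it came from. So are the reads of Gm3448 that fall in its coding transcript, where 2.95% of the words were its own. On the same strand, 48 exon positions of Gm3448 (1.66% of its exon length) are also exons of Tcte3. On the opposite strand, 580 exon positions of Tmem181a (8.86% of its exon length) are also exons of Dynlt1a, and 97 of Gm3448 (3.36%) are exons of Ermard. Dynlt1a, Dynlt1f, Tcte3, Gm3417, Ermard, 9030025P20Rik and the Tmem181 pseudogenes were not analysed here beyond their sequence.

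The recovered library totals were 75.3, 79.5 and 79.0 M reads in WT and 94.0, 89.3 and 81.5 M in Slc6a4-/-, and counts are given scaled to the geometric mean total of 82.9 M. The study states fewer reads per sample than any of these totals, and why was not tested. Slc6a4, on chromosome 11, had 1516, 1397 and 1548 reads in the WT libraries and 0, 0 and 3 in the Slc6a4-/- libraries, as their labels say. Of 34 marker names, for retinal, pigment epithelium, myeloid and gland cells, 13 were among the 701 genes, with Nefl for retinal ganglion cells and the cone opsins Opn1sw and Opn1mw for photoreceptors counted in every library.

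Dynlt1b was 2.16-fold higher in the mean in the Slc6a4-/- VT retina, and its near-identical neighbour Dynlt1c 1.28-fold. Values are given for samples 1, 2 and 3 of a genotype in turn, and means with the SD over the 3 pools (n = 3). Dynlt1b had 318, 322 and 305 scaled counts in WT and 518, 881 and 647 in Slc6a4-/-. The WT libraries lay close together and below all 3 Slc6a4-/- libraries, of which sample 2 was the highest. Dynlt1b averaged 315 ± 8.88 in WT and 682 ± 184 in Slc6a4-/-, with a log2 difference of 1.08 ± 0.20 (SE, limma). Dynlt1c had 536, 534 and 468 scaled counts in WT and 562, 688 and 718 in Slc6a4-/-. Its groups did not overlap, but the lowest Slc6a4-/- library was only 1.05 times the highest WT library. Dynlt1c averaged 512 ± 38.8 in WT and 656 ± 82.7 in Slc6a4-/-, a log2 difference of 0.35 ± 0.13 (SE).

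Tmem181a, in the same array, had 2194, 2258 and 2373 scaled counts in WT and 2781, 3292 and 3102 in Slc6a4-/-. All 3 Slc6a4-/- libraries were above WT, the lowest by 1.17 times, and the spread within each genotype was small. Tmem181a averaged 2275 ± 90.8 in WT and 3058 ± 259 in Slc6a4-/-, 1.34-fold higher, a log2 difference of 0.42 ± 0.09 (SE).

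In the second array, too, one gene had the larger and one the smaller difference. The Ermard copy Gm3435 had 224, 189 and 275 scaled counts in WT and 423, 563 and 551 in Slc6a4-/-, every Slc6a4-/- library being at least 1.54 times the highest WT library. Gm3435 averaged 229 ± 43.2 in WT and 513 ± 77.6 in Slc6a4-/-, 2.24-fold higher, a log2 difference of 1.16 ± 0.19 (SE). The Tcte3 copy Gm3448, whose coding transcript overlaps its first 7 bases on the other strand, had 506, 471 and 486 scaled counts in WT and 638, 709 and 559 in Slc6a4-/-. Here sample 3 was the lowest of the Slc6a4-/- libraries, 1.11 times the highest WT library. Gm3448 averaged 488 ± 17.4 in WT and 636 ± 74.7 in Slc6a4-/-, 1.30-fold higher, a log2 difference of 0.37 ± 0.12 (SE).

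**Figure D2:**
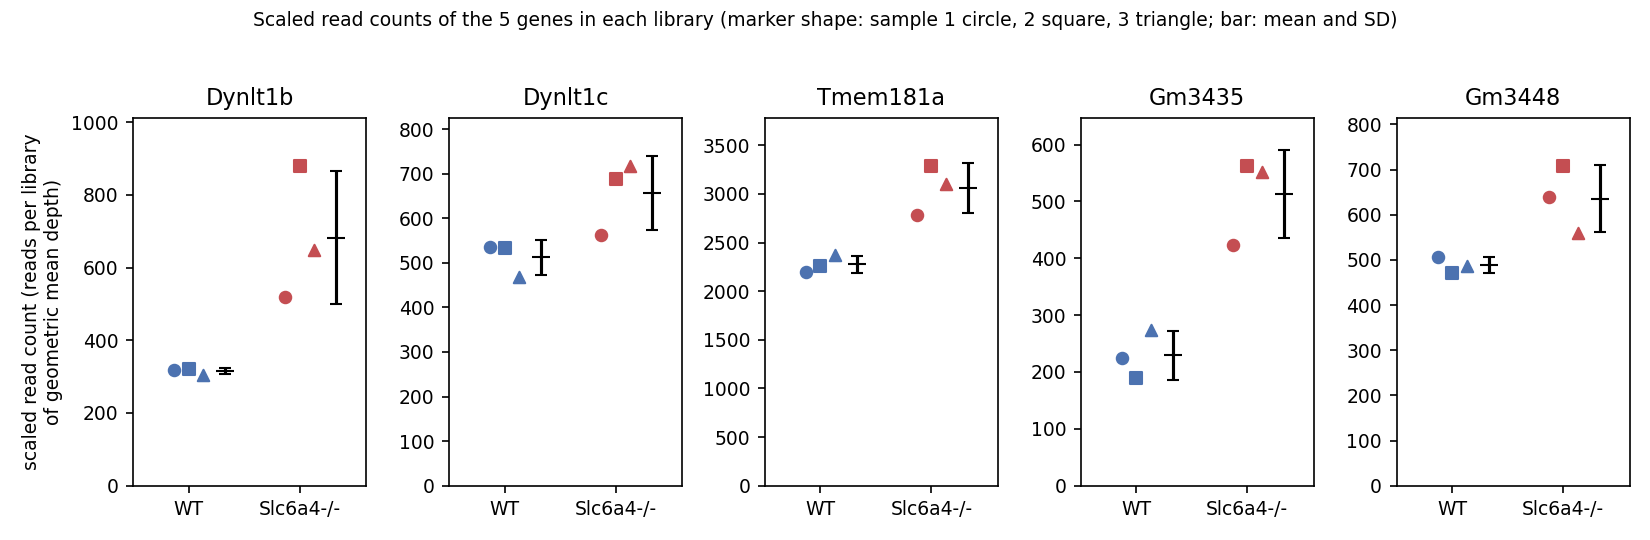
Scaled read counts (y axis, from 0, a separate scale for each gene) of the 5 genes in the 3 WT (blue) and 3 Slc6a4-/- (red) libraries, with the mean and SD of each genotype in black. No gene's groups overlap; the gap is wide for Dynlt1b and Gm3435 and narrow for Dynlt1c, where 562 in the lowest Slc6a4-/- library faces 536 in the highest WT library.

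All 5 genes were thus higher in Slc6a4-/-, with groups that did not overlap. This was so, in that direction, for 247 of the 701 genes (35.2%), and since the table was selected on this difference nothing is read from the members' count. Means over 1.5-fold higher in Slc6a4-/- were found for 2 of the 5, Dynlt1b and Gm3435, against 214 of the 701 genes (30.5%). Without scaling of the libraries these became 3 of the 5, with Tmem181a added, and 301 genes. Of the 397 genes higher in Slc6a4-/-, Gm3435 ranked 74 and Dynlt1b 92 by log2 difference, whereas Tmem181a ranked 289, Gm3448 314 and Dynlt1c 323. The median log2 difference of the 5 genes was 0.42, of the 397 higher genes 0.64 and of all 701 genes 0.30. As the retina was measured in bulk, more cells of a type and more RNA per cell cannot be told apart.

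**Figure D3:**
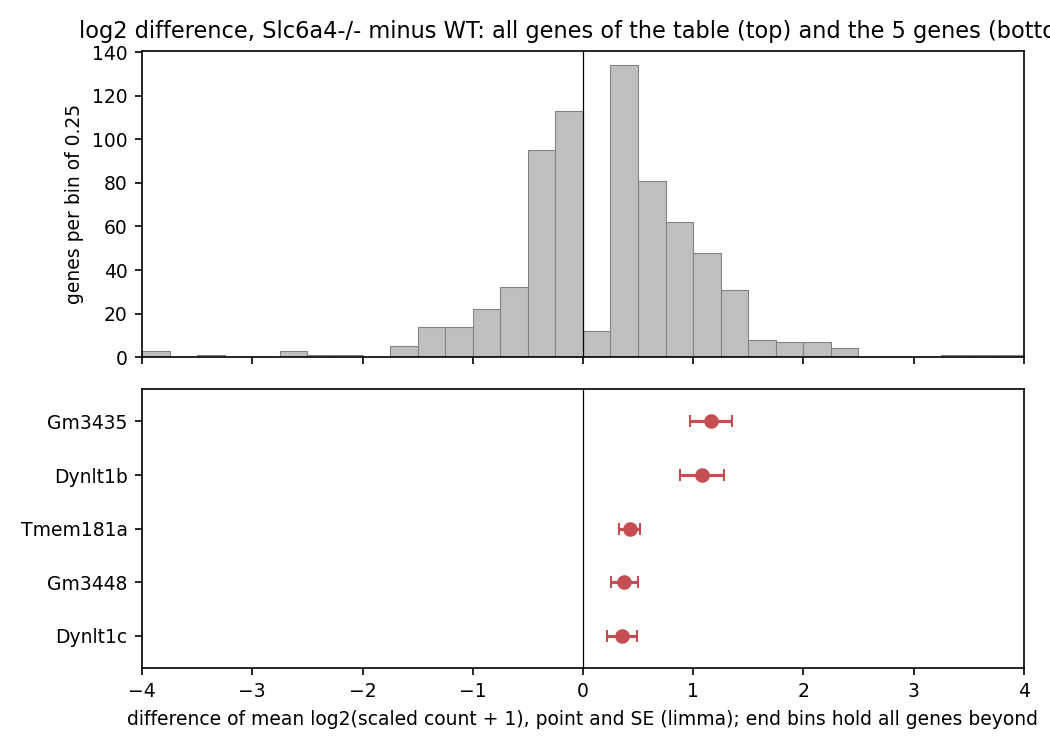
Top, number of genes per bin of 0.25 in log2 difference (Slc6a4-/- minus WT) over the 701 genes; bottom, the same x axis with the value and SE of each of the 5 genes. Gm3435 (1.16) and Dynlt1b (1.08) lie apart from Tmem181a (0.42), Gm3448 (0.37) and Dynlt1c (0.35).

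Ratios between genes within a library do not depend on the scaling of libraries, apart from the small value added before the logarithm, and were used to set the copies against each other. The count of Dynlt1b was 0.593, 0.604 and 0.652 times that of Dynlt1c in the WT libraries, and 0.922, 1.28 and 0.901 times in the Slc6a4-/- libraries. The ratio was thus below 1 in every WT library and near or above 1 in Slc6a4-/-, sample 2 being the highest. On the log2 scale it went from -0.70 ± 0.07 in WT to 0.03 ± 0.28 in Slc6a4-/-, a difference of 0.73. Without Slc6a4-/- sample 2 this difference was 0.56.

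In the second array the count of Gm3435 was 0.443, 0.400 and 0.565 times that of Gm3448 in WT and 0.663, 0.795 and 0.985 times in Slc6a4-/-. The groups again did not overlap. The log2 ratio was -1.10 ± 0.25 in WT and -0.31 ± 0.29 in Slc6a4-/-, a difference of 0.79, close in size to that of Dynlt1b against Dynlt1c.

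The 10 pairs of the 5 genes fell into 2 kinds. The size of each ratio difference follows from the log2 differences of its 2 genes given above, so the pairs are not separate observations. Overlap in pairs of other genes of the table was not counted. In the 6 pairs that set Dynlt1b or Gm3435 against one of the others, the log2 ratios of the genotypes did not overlap, and the differences were 0.65 to 0.81 in size. In the 4 remaining pairs the genotypes overlapped, and the differences were 0.02 to 0.08 in size. Dynlt1b against Gm3435, genes of different families over 8 Mb apart, had a log2 ratio of 0.47 ± 0.31 in WT and 0.39 ± 0.22 in Slc6a4-/-. Dynlt1c against Tmem181a had -2.15 ± 0.17 in WT and -2.22 ± 0.10 in Slc6a4-/-. Within these SDs the 2 larger differences could not be set apart from each other, nor the 3 smaller ones.

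**Figure D4:**
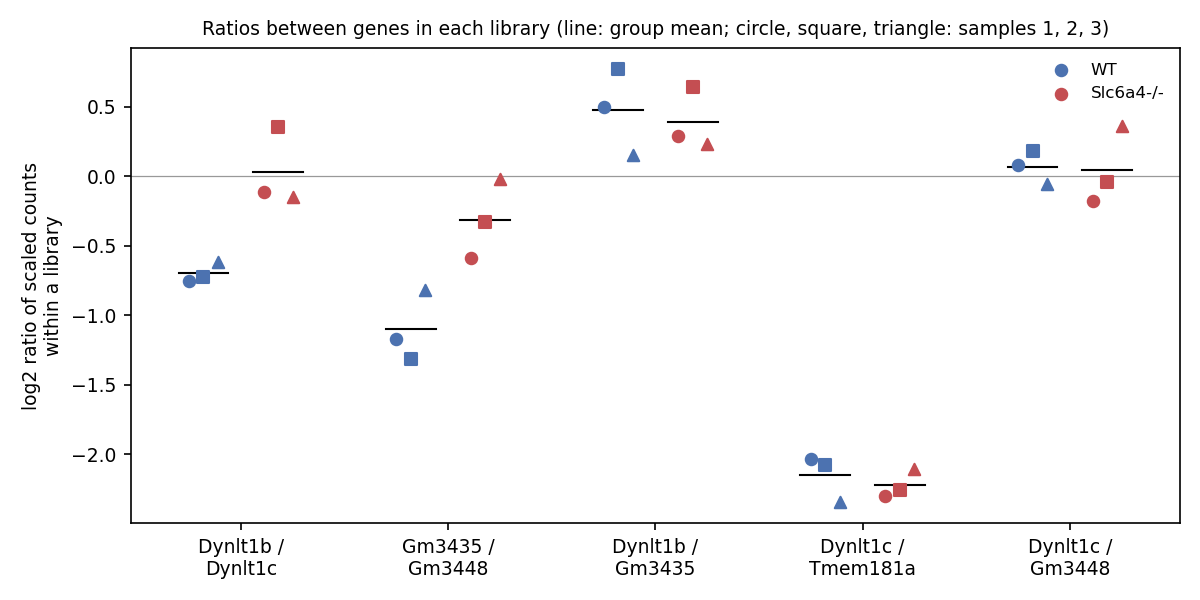
Log2 ratio of the scaled counts of 2 genes within each library (y axis) for 5 pairs, WT in blue and Slc6a4-/- in red, with the group mean as a line. The groups separate for Dynlt1b against Dynlt1c (means -0.70 and 0.03) and Gm3435 against Gm3448 (means -1.10 and -0.31), and overlap in the other 3 pairs.

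Because Dynlt1c holds 71.9% of the words of Dynlt1b, their counts were also summed. Dynlt1a holds as many, and Dynlt1c shares more of its words with Dynlt1f (73.4%) and Dynlt1a (54.3%) than with Dynlt1b (13.0%). Reads divided with Dynlt1a or Dynlt1f are therefore not covered by the sum. The sum was 854, 856 and 773 scaled counts in WT and 1081, 1569 and 1365 in Slc6a4-/-, again without overlap. Its mean was 827 ± 47.4 in WT and 1338 ± 245 in Slc6a4-/-, 1.62-fold higher, a log2 difference of 0.68. The share of Dynlt1b in the sum was 37.2% to 39.5% in the WT libraries and 47.4% to 56.1% in the Slc6a4-/- libraries. Of the reads added in Slc6a4-/-, 367 scaled counts were booked to Dynlt1b and 144 to Dynlt1c. No other pair of the 5 genes shared a 75-base word on the same strand.

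Levels of different genes were compared per length of transcript, as RPKM (reads per kilobase of transcript, also divided by the library total), with the length that the deposited mean RPKM implies for each gene, so that the Slc6a4-/- means equal the deposited ones. With these lengths the order in WT was Tmem181a at 5.94 ± 0.24 RPKM, Dynlt1b at 4.93 ± 0.14, Dynlt1c at 2.39 ± 0.18, Gm3448 at 2.04 ± 0.07 and Gm3435 at 1.61 ± 0.30. No neighbours in this order overlapped, but Dynlt1c and Gm3448 came as near as 2.18 and 2.12 RPKM, and Gm3448 and Gm3435 as near as 1.97 and 1.93. In Slc6a4-/- Dynlt1b came first at 10.7 ± 2.88 RPKM and Tmem181a next at 7.99 ± 0.68, with overlapping libraries. Gm3435 stood at 3.61 ± 0.55, Dynlt1c at 3.06 ± 0.39 and Gm3448 at 2.66 ± 0.31 RPKM, with overlapping libraries between neighbours among these 3. The order depends on the lengths of Tmem181a and Dynlt1c, which are shorter than the M21 exons of these genes. The length of Dynlt1c, 2589 bases, is that of 1 of its transcripts, whereas for Tmem181a 4620 bases was 2.62% from the nearest of its 4 transcripts. With M21 exon lengths Tmem181a would stand at 4.19 RPKM in WT, below Dynlt1b, and Dynlt1c at 1.64, below Gm3448. In Slc6a4-/- Tmem181a would stand at 5.64 and Dynlt1c at 2.10 RPKM. With the implied lengths Dynlt1b was per length 2.07 times Dynlt1c in WT and 3.49 times in Slc6a4-/-, although its count was the lower of the 2 in every WT library.

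The spread between pools of a genotype differed between the genes. In WT the SD of Dynlt1b was 0.485 times, and that of Gm3448 0.765 times, what counting error alone gives, whereas Dynlt1c was at 1.66, Tmem181a at 1.85 and Gm3435 at 2.77 times. The median of the 514 genes with a mean of at least 100 scaled counts was 2.32 times. In Slc6a4-/- Dynlt1b had the widest spread of the 5, 7.24 times counting error, its highest library being 1.70 times its lowest. The others lay between 3.05 times for Gm3448 and 4.82 times for Tmem181a, around the median of 3.55 times. Whether both ends of a fragment were counted as separate reads is not given in the sources used here. If they were, counting error would be larger and all these multiples smaller.

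Few names of the dynein pathway were among the 701 genes, and as these were selected by the authors from all measured genes, nothing is read from how few. Of 14 names of Tctex-type light chains, 11 of them annotated, 3 were among the 701 genes, and these were Dynlt1b, Dynlt1c and Gm3448. Of 13 names of cytoplasmic dynein chains and 7 names of axonemal dynein chains (5 annotated), 0 were among them. Of 19 names of dynactin and its adaptors the table held 1, Dctn1, the p150-Glued subunit that ties dynactin to dynein and the microtubule. Dctn1 went the other way, with 9515, 9729 and 10107 scaled counts in WT and 8426, 8369 and 9074 in Slc6a4-/-. Its groups did not overlap, and its log2 difference was -0.18 ± 0.08 (SE). Dctn1, too, was in the table because of its difference between the genotypes.

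The pattern of Dynlt1b over the 6 libraries was, with the other 4 members left aside, most like those of 5 genes elsewhere in the genome. Over 509 other genes with a mean of at least 100 scaled counts, Pearson's r of log2(scaled count + 1) was 0.989 for Minar2, 0.987 for Pld5, a member of the phospholipase D family, 0.977 for Bub3, a spindle checkpoint protein, 0.976 for Vps53, a subunit of a tethering complex for endosome-to-Golgi transport, and 0.974 for Aox1, an aldehyde oxidase. Among the other members it was 0.977 for Tmem181a, 0.931 for Gm3435, 0.901 for Gm3448 and 0.898 for Dynlt1c. The 6 points share the genotype difference on which all of these genes were selected, so that these values are a description. The filter used the mean over all 6 libraries. Pld5 (mean 76.5 in WT and 135 in Slc6a4-/-) and Aox1 (86.6 and 138) passed it only through their higher level in Slc6a4-/-. The log2 differences of the 5 genes, 0.30 for Minar2, 0.80 for Pld5, 0.44 for Bub3, 0.29 for Vps53 and 0.67 for Aox1, were all smaller than that of Dynlt1b.

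Markers of other cell types are given beside these values. Of 8 pigment epithelium names 5 were among the 701 genes (Lrat, Mlana, Tyrp1, Pmel and Dct), and their summed level was 929 to 2243 scaled counts in WT and 1988 to 3774 in Slc6a4-/-, 1.88-fold higher in the mean. None of the 5 was at 0 in any library. Over the WT libraries this sum differed 2.41-fold between the lowest and the highest, where Dynlt1b differed 1.06-fold. In Slc6a4-/- samples 1, 2 and 3 the sum was 3399, 3774 and 1988, and Dynlt1b was 518, 881 and 647. Sample 2 was the highest in both, and samples 1 and 3 stood in opposite order. The 2 myeloid names present of 6 (Aif1 and Lyz2) summed to 90.2 to 228 scaled counts in WT and 220 to 326 in Slc6a4-/-. The 3 gland secretion names present of 4 (Bpifa1, Obp1a and Muc5b) summed to 42.9 to 134 in WT and 24.4 to 30.6 in Slc6a4-/-. Nefl, the 1 name present of 6 for retinal ganglion cells, had 10789 to 12934 in WT and 8997 to 11725 in Slc6a4-/-, and the 2 cone opsins present of 7 photoreceptor names summed to 8772 to 18904 in WT and 7566 to 9463 in Slc6a4-/-. The means of the cone opsins differed in opposite directions, with overlapping groups, Opn1sw with a mean of 11540 in WT and 4887 in Slc6a4-/-, and Opn1mw with 2700 and 3541. Of 3 Mueller glia names 0 were among the 701 genes. The part of these cells in the values of the 5 genes was not tested.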

How the data were processed

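RNA-seq libraries came from 6 pools, 3 per genotype, of 3 peripheral VT retinae each. SDs measure the spread between these pools. SEs are those of limma, which moves the variance of each gene between pools towards a trend over the 701 selected genes. The authors depleted ribosomal RNA, made stranded total RNA libraries, read both ends of each fragment (75 bases), and used the CLC Genomics workbench for alignment to GRCm38 and for counting. They deposited counts for the 701 genes they selected by p-value, as whole numbers per gene and sample without normalization. Large counts carry a comma between digits, which was removed, and 0 sample columns were left out. The deposited RPKM value is the mean of the genotype with the higher mean. Columns of the authors' comparison (fold changes and p-values) were not used.

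The table sums are not the depth. Total reads per library were recovered from the deposited RPKM values and GENCODE M21 exon lengths. This used 88 of 178 genes higher in WT and 76 of 223 genes higher in Slc6a4-/-. The rest of each set was off by more than 0.5%, and whether through other gene models was not tested. The relative SE was 0.18% to 0.28%, and on simulated data the largest error was 0.48%. The simulation spread wrong lengths evenly around the M21 length, which the deposited data need not do, so the true error may be larger. Counts divided by these totals (scaled to their geometric mean) were compared on log2(scaled count + 1) with limma 3.58.1 (lmFit, eBayes with trend) in R 4.3.3, fitted on all 701 genes. The quasi-likelihood count test planned was left out, because counts written with commas were not accepted as whole numbers by the unit check. Since the genes were selected on the same contrast, limma gives differences and SEs here and no p is printed. For RPKM per library, Dynlt1c and Tmem181a were given the 2589 and 4620 bases that the deposited RPKM implies, since M21 exons total 3777 and 6548. For Dynlt1b, Gm3435 and Gm3448 both lengths differed by under 0.5%.

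All 701 identifiers matched M21. Sequences are from M21 transcripts (GRCm38), coding parts from its annotation, and promoters from RefSeq (GRCm38.p6), which matched 7 of the 11 genes of the Dynlt1, Tcte3, Ermard and Tmem181 families looked up. Marker and pathway lists, and the 5 genes themselves, were chosen with earlier results of these data known. A list of binding partners of Tctex-1 is not reported here. The genes named are the 5, other table genes within 1 Mb of them, list genes, annotated copies for position and sequence, and the 5 genes most like Dynlt1b; Baiap3 was named for its position. Alternatives were other scalings, pseudocounts of 0.5 and 5, limma without trend, a replicate block and each library left out in turn. Others were summed copies, and words of 50 and 100 bases. A filter on low counts kept all 701 genes and so repeated the main fit.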

Additional observations from a re-analysis of the deposited data

How the results depend on the processing

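All 5 genes were higher in Slc6a4-/- under every alternative run. Without scaling, which shifted the median of the 701 genes by 0.18 on the log2 scale, the log2 differences of Dynlt1c, Tmem181a and Gm3448 became 0.53, 0.60 and 0.55, since the Slc6a4-/- libraries were deeper. With the counts of Dynlt1b and Dynlt1c summed, the value for Dynlt1b of 1.08 became 0.68. Leaving out 1 library at a time gave 0.88 to 1.26 for Dynlt1b, 0.28 to 0.46 for Dynlt1c, 0.37 to 0.49 for Tmem181a, 1.03 to 1.30 for Gm3435 and 0.29 to 0.46 for Gm3448. In 3 of the 4 pairs whose genotypes overlapped, the ratio difference changed sign when a library was left out, with -0.246 to 0.063 for Dynlt1b to Gm3435, -0.180 to 0.0906 for Dynlt1c to Gm3448 and -0.0514 to 0.122 for Tmem181a to Gm3448. The other log2 differences and ratio differences kept their direction and moved by less than the spread between pools. Counts over the table moved by up to 1.5 times, non-overlapping higher genes from 247 to 325 and genes over 1.5-fold higher from 214 to 301 without scaling (added, like the M21 lengths, after the data were seen). Shares of shared words kept within 1.5 times with 50 or 100 bases.

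A replicate block gave the same difference by construction, 1.08 for Dynlt1b, with an SE of 0.18 in place of 0.20. Same-numbered pools had deviations correlated at 0.43, -0.18 and 0.21, not every sample was most like its own number, and the numbers were not taken to pair the samples. The 2 count-based tools planned as alternatives were not run, for the reason given for the count test. Shared sequence limits how far counts of Dynlt1b, Dynlt1c and Gm3435, and reads from the coding transcript of Gm3448, can be tied to 1 copy.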
